A study of Mus musculus with 12 samples.

Results

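In mouse liver, 3 stretches of DNA lying inside the protein-coding genes Ubr4, Dhx9 and Aqr were covered by the libraries titled H3K36 far above input, while RNA polymerase III (Pol III) coverage stayed near input. They were chosen by those measured values, H3K36-titled and Pol III coverage set against input, and are 3 of 532 stretches in the deposited files (3 of 442 regions after neighbours under 1000 bp apart were merged). The H3K36-titled, Pol III and input values given for them are therefore a description with no test. Each stretch holds a sequence that folds as a tRNA gene, with 150 bp of flank on either side, and lies wholly within an intron of its host. The files hold no RNA and cover none of the rest of the host genes, so transcription of Ubr4, Dhx9 and Aqr was not measured here. RNA polymerase II (Pol II) was measured only over the stretches themselves.

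The study profiled chromatin of Mus musculus liver by immunoprecipitation and sequencing (ChIP-seq) to ask which Pol III genes are occupied. The animals were C57/BL6 males of 12 to 14 weeks with no transgene or drug named in the labels. All were kept in 12 h light and 12 h dark for 2 weeks and then fed only from ZT12 to ZT24 (hours after lights on) for 7 days. Livers were taken from 5 mice at ZT2 and, as the biological replicate, from 5 mice at ZT26. The labels do not say which replicate number is which time, or whether mice were pooled. The 12 libraries form 6 groups of 2: RPC1 and RPC4 (Pol III subunits, antibodies raised by the submitters' laboratory), RPB2 (a Pol II subunit, commercial antibody), H3K4-titled, H3K36-titled and input chromatin. For the histone libraries the titles and the antibody fields are swapped. Those titled H3K4 name an H3K36me3 antibody and those titled H3K36 name an H3K4me3 antibody. Both are called by their titles, and which mark each carries cannot be told apart from the labels. Of 8 marker genes of hepatocytes and other liver cells that were looked for, 0 were overlapped by a stretch, so the tissue could not be checked.

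Pol III transcribes tRNA genes from promoters inside the gene. The factor TFIIIC binds an A box, which encodes the D arm, and a B box, which encodes the T arm, and brings in TFIIIB, which recruits the polymerase. Transcription ends at a run of T just after the gene. tRNA genes within introns of other genes can lie in either direction, where elongating Pol II may pass through them. H3K36me3 is laid down across the bodies of genes by SETD2, an enzyme that travels with elongating Pol II, and H3K4me3 marks active promoters.

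The gene sequences of the 3 stretches (mm9, read 5′ to 3′ along the predicted tRNA gene) are printed because the low Pol III coverage can be set against the promoter letters in them. Capitals mark an A-box-like match of 11 letters (TNG, then 3 free letters, then AGNGG, where N is any base) and the B-box letters GTTCNA at the start of the T loop. For the Aqr gene, the gene of equal length with the most identical bases in the files, chosen for the highest Pol III where several tied, follows on its own line.
Ubr4 intron, predicted tRNA-Val (AAC), chr4:138986421-138986492, minus strand: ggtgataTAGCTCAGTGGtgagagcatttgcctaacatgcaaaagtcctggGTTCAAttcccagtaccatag
Dhx9 intron, predicted tRNA-Ile (TAT), chr1:155305794-155305866, plus strand: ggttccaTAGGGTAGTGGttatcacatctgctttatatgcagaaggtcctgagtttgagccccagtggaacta
Aqr intron, predicted tRNA-Asp (GTC), chr2:113929103-113929174, plus strand: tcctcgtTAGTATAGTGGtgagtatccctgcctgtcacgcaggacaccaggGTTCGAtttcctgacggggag
closest relative of the Aqr gene, tRNA-Asp (GTC), chr5:125889386-125889457, minus strand: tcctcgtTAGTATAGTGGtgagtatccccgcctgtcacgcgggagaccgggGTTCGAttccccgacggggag

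The Ubr4 stretch (chr4:138986271-138986642, mm9) lay in intron 48 of 106 of transcript Ubr4-201, 15 bp from the nearer exon. Ubr4 (ENSMUSG00000066036.7) codes for a large E3 ubiquitin ligase of the N-degron pathway. The middle of the stretch was 45.8% of the way along the transcript. Its 72-base gene had 19 of 21 possible stem pairs and fell short in the acceptor stem, where 5 of 7 bases paired. Among predicted genes of the same length none came closer than 59.7% identity (43 of 72 bases, shared by 9 genes). The one of these with the highest Pol III was a predicted tRNA-Cys (GCA) gene, not a tRNA-Val gene. Genes of other lengths were not compared. Both promoter matches were present in it, and no TTTT occurred in the 150 bp after it.

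The Dhx9 stretch (chr1:155305644-155306016) lay in intron 24 of 27 of Dhx9-201, 90.8% along the transcript and 24 bp from the nearer exon. Dhx9 (ENSMUSG00000042699.5) codes for RNA helicase A. The cloverleaf had 18 of 21 pairs, with 2 of 4 in the D stem and 4 of 5 in the T stem. Its name, tRNA-Ile (TAT), comes from the anticodon letters of this fold alone, so its identity is uncertain. Few predicted genes folded so weakly, and 11 of 377 had 18 pairs or fewer. At the start of the T loop it read GTTTGA, which does not match the B-box letters. GTTCNA stood at the start of the T loop in 342 of 377 predicted genes (90.7%). The first TTTT came 87 bp after the gene.

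In Aqr, whose product Aquarius is an intron-binding helicase of the spliceosome, the stretch (chr2:113928953-113929324) lay in the last intron, 34 of 34 of Aqr-001 (ENSMUSG00000040383.10), 97.0% along the transcript. The nearer exon was 415 bp away. This gene was the most intact of the 3, with 21 of 21 pairs, both promoter matches and a TTTT 13 bp after its end. It shared 66 of 72 bases (91.7%) with 12 tRNA-Asp (GTC) genes that all had 1 sequence. Counted from the 5′ end, with the relative's base first, the 6 substitutions were C29T, G41A, G45C, G49A, C60T and C63T, none of them within the capitals. All 3 genes thus held the A-box-like match, 2 of 3 the B-box letters in place, and 1 of 3 a TTTT within 40 bp of the end. Across stretches with room for a single gene the A-box-like letters stood in the gene, on its own strand, in 62.2% of 381, and a TTTT followed within 40 bp in 85.3%. Each gene ran against the direction of its host. So did 13 of 22 single genes in introns, these 3 included.

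Pol III coverage was low in all 3 stretches. In Ubr4 it was 0.559 and 0.629 reads per base in the RPC1 libraries and 1.19 and 1.08 in the RPC4 libraries, against 0.613 and 2.08 in input. All 4 Pol III values lay within or below the range of the 2 input libraries. In Dhx9 the RPC1 libraries had 1.43 and 1.36 and the RPC4 libraries 0.737 and 0.359, against 1.02 and 1.16 in input. Here both RPC1 values were above both input values and both RPC4 values were below them. In Aqr the values were 0.613 and 0.204 for RPC1, 0.852 and 0.145 for RPC4, and 0.817 and 0.613 for input, so the groups overlapped. The means of 4 Pol III libraries were 0.863 ± 0.315 in Ubr4, 0.971 ± 0.513 in Dhx9 and 0.454 ± 0.337 in Aqr (SD, n = 4), and the median of all other regions was 9.38.

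Along the stretches the Pol III libraries held few reads. Over the Dhx9 gene RPC1 had 1.90 and 2.47 reads per base, above 1.07 and 0.699 in input, while RPC4 had 1.26 and 0. Before that gene RPC1 had 1.87 and 1.07 and after it 0.753 and 1.12, and its replicates had little shape in common (r = 0.08 across bases). Over the Aqr gene RPC1 had 1.24 and 0.542 and RPC4 0.806 and 0, within or below the input values of 1.74 and 0.111. The RPC1 replicates of Aqr had r = 0.608, with 0.507 and 0 before the gene and 0.420 and 0.247 after it. That value rests on 3 and 1 read equivalents, too few to give a shape. Over the Ubr4 gene the values were 0.917 and 0.292 for RPC1 and 0.583 and 0.903 for RPC4, overlapping 0.806 and 0.514 in input.

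The same libraries covered the printed relative of the Aqr gene heavily. That relative was chosen for the highest Pol III among equally close genes, and the Aqr stretch for Pol III near input. The contrast between them was therefore set by both choices and is a description. The tRNA-Asp (GTC) gene printed beside the Aqr gene had 130.2 and 90.8 in RPC1 and 188.5 and 194.4 in RPC4, at an input mean of 0.883. Genes of the same sequence differed widely in coverage, and the 12 identical tRNA-Asp genes ran from 1.92 to 151.0, with a median of 39.4, and 3 of them were under 10. Reads cannot be assigned with certainty among identical copies, and 8 of these 12 held fractional values. Such values could arise where a read was shared between places, but how reads were assigned is not given. The 3 intronic stretches held no fractional base.

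**Figure D1:**
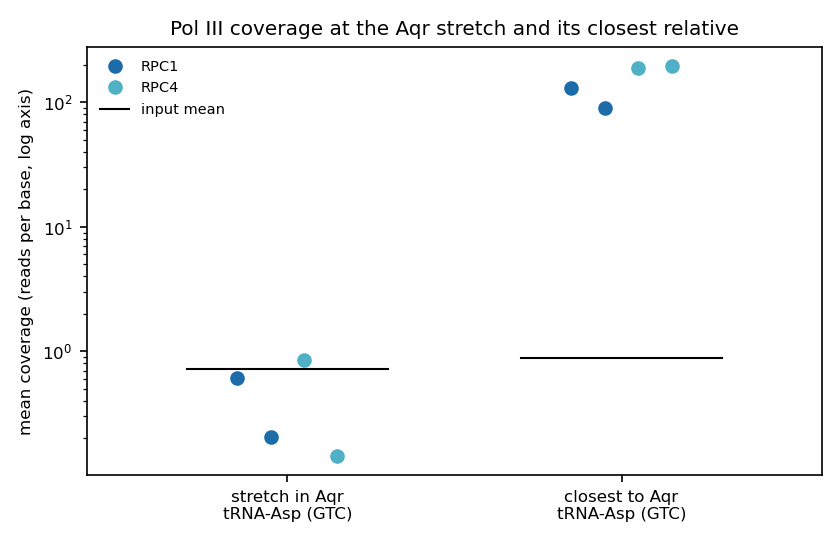
Mean Pol III coverage per library (points, reads per base, log axis) over the Aqr stretch and the stretch of its relative printed above, with the input mean as a bar. The 4 points of the Aqr stretch lie between 0.145 and 0.852, and the 4 points of the relative lie between 90.8 and 194.4. The relative was chosen for the highest Pol III among equally close genes and the Aqr stretch for Pol III near input, so both choices set this contrast.

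Among the other genes with the same anticodons, both other tRNA-Val (AAC) regions carried Pol III. The higher, near Mynn on chromosome 3, had 141.0 ± 36.4 and the lower, near Prss16 on chromosome 13, had 56.2 ± 17.7 (SD, n = 4). The Ubr4 gene was set beside these regions by its predicted anticodon alone, and low Pol III took part in its choice. The 14 other tRNA-Asp (GTC) regions ran from 0.874 near Agpat9 on chromosome 5 to 124.3 in a pair of tRNA-Asp and tRNA-Ala genes near Dhx37 on the same chromosome, with a median of 43.8. The Aqr stretch, at 0.454, was below all 14, given as a description because low Pol III took part in its choice.

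H3K36-titled coverage was high in every one of the 6 values. In Ubr4 it was 14.9 and 12.4 reads per base, in Dhx9 17.6 and 8.59, and in Aqr 5.34 and 4.29. These exceeded both input libraries in each stretch, and as means they were 10.1, 12.0 and 6.73 times input before any scaling. The Ubr4 ratio was 6.55 without input replicate 1 and 22.2 without input replicate 2, and the Dhx9 ratio was 7.89 without H3K36-titled replicate 1. The means were 13.6 ± 1.77 in Ubr4, 13.1 ± 6.38 in Dhx9 and 4.81 ± 0.741 in Aqr (SD, n = 2). The median of the other regions was 0.252. Together the 3 stretches make up 0.505% of the bases in the files but held 10.6% and 9.71% of all H3K36-titled coverage. Their share was 0.337% and 0.560% in input, 0.218% and 0.131% in RPB2, 0.0176% and 0.0117% in H3K4-titled libraries, and 0.00481% to 0.0131% in the 4 Pol III libraries.

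**Figure D2:**
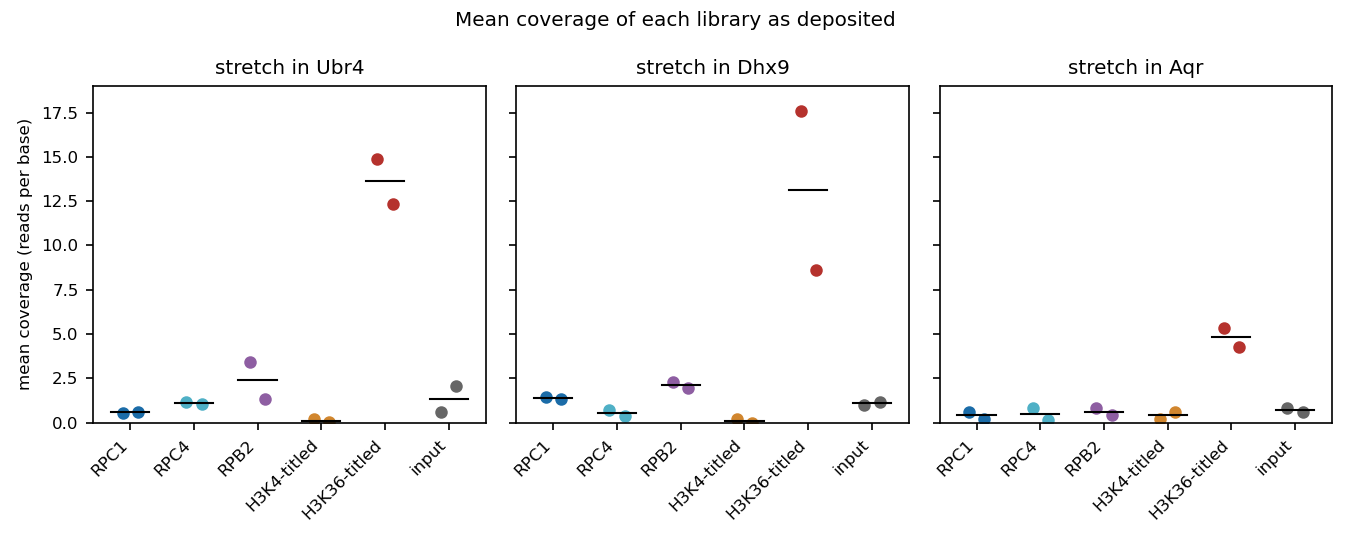
Mean coverage (reads per base, linear axis) of each of the 12 libraries in the 3 stretches, with a bar at the mean of each pair. The H3K36-titled points, from 4.29 to 17.6, stand above every other library of the same stretch, and no other point exceeds 3.44.

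These H3K36-titled reads came from many fragments. Read equivalents (summed coverage divided by the read length of 76 bp) were 72.8 and 60.5 in Ubr4, 86.5 and 42.2 in Dhx9 and 26.1 and 21 in Aqr. Coverage rose at 48 and 44 separate positions in Ubr4, 53 and 29 in Dhx9 and 17 and 15 in Aqr, so reads began at no fewer places than that.

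Base by base, the 3 stretches differed in shape. In Dhx9 the predicted gene itself was the most covered part in both H3K36-titled libraries, with 33.5 and 13.0 reads per base over the gene, 13.5 and 9.91 over the 150 bp before it and 14.0 and 5.14 over the 150 bp after it. The highest bases held 39 and 17 reads, 47 and 30 bp from the gene start. In Aqr too the gene was the most covered part in both libraries, with 11.2 and 8.65 over the gene, 4.57 and 4.05 before and 3.31 and 2.43 after, and highest bases of 16 and 10 reads at 49 and 28 bp. In Ubr4 the libraries disagreed. Replicate 1 had 21.1 over the gene, 13.1 before and 13.6 after it, whereas replicate 2 had 6.71, 16.3 and 11.1 and its highest base, 30 reads, lay 98 bp before the gene. Both Ubr4 libraries dipped just before the gene start, to lowest values of 3 and 1. Over the 372 or 373 bases, which are not independent, Pearson's r between the replicates was 0.718 in Dhx9, 0.706 in Aqr and 0.285 in Ubr4.

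Input was sparse, with 3 to 10.2 read equivalents per stretch and library. In Dhx9, input had 2.01 and 2.54 before the gene, 1.07 and 0.699 over it and 0 in both libraries after it (r = 0.899 between the replicates). In Aqr it had 1.19 and 1.01 before the gene, 1.74 and 0.111 over it and 0 and 0.453 after it. The sequence after the gene is repeated in both, and 31-base words found once in the genome made up 77.6% of the Dhx9 and 74.3% of the Aqr stretch. The most frequent words, 6860 and 19241 copies, began 167 and 189 bp from the gene start. All words lying within the 3 genes were unique, as was every word of the Ubr4 stretch. The part of these repeats in the lower coverage after the Dhx9 and Aqr genes was not tested.

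**Figure D3:**
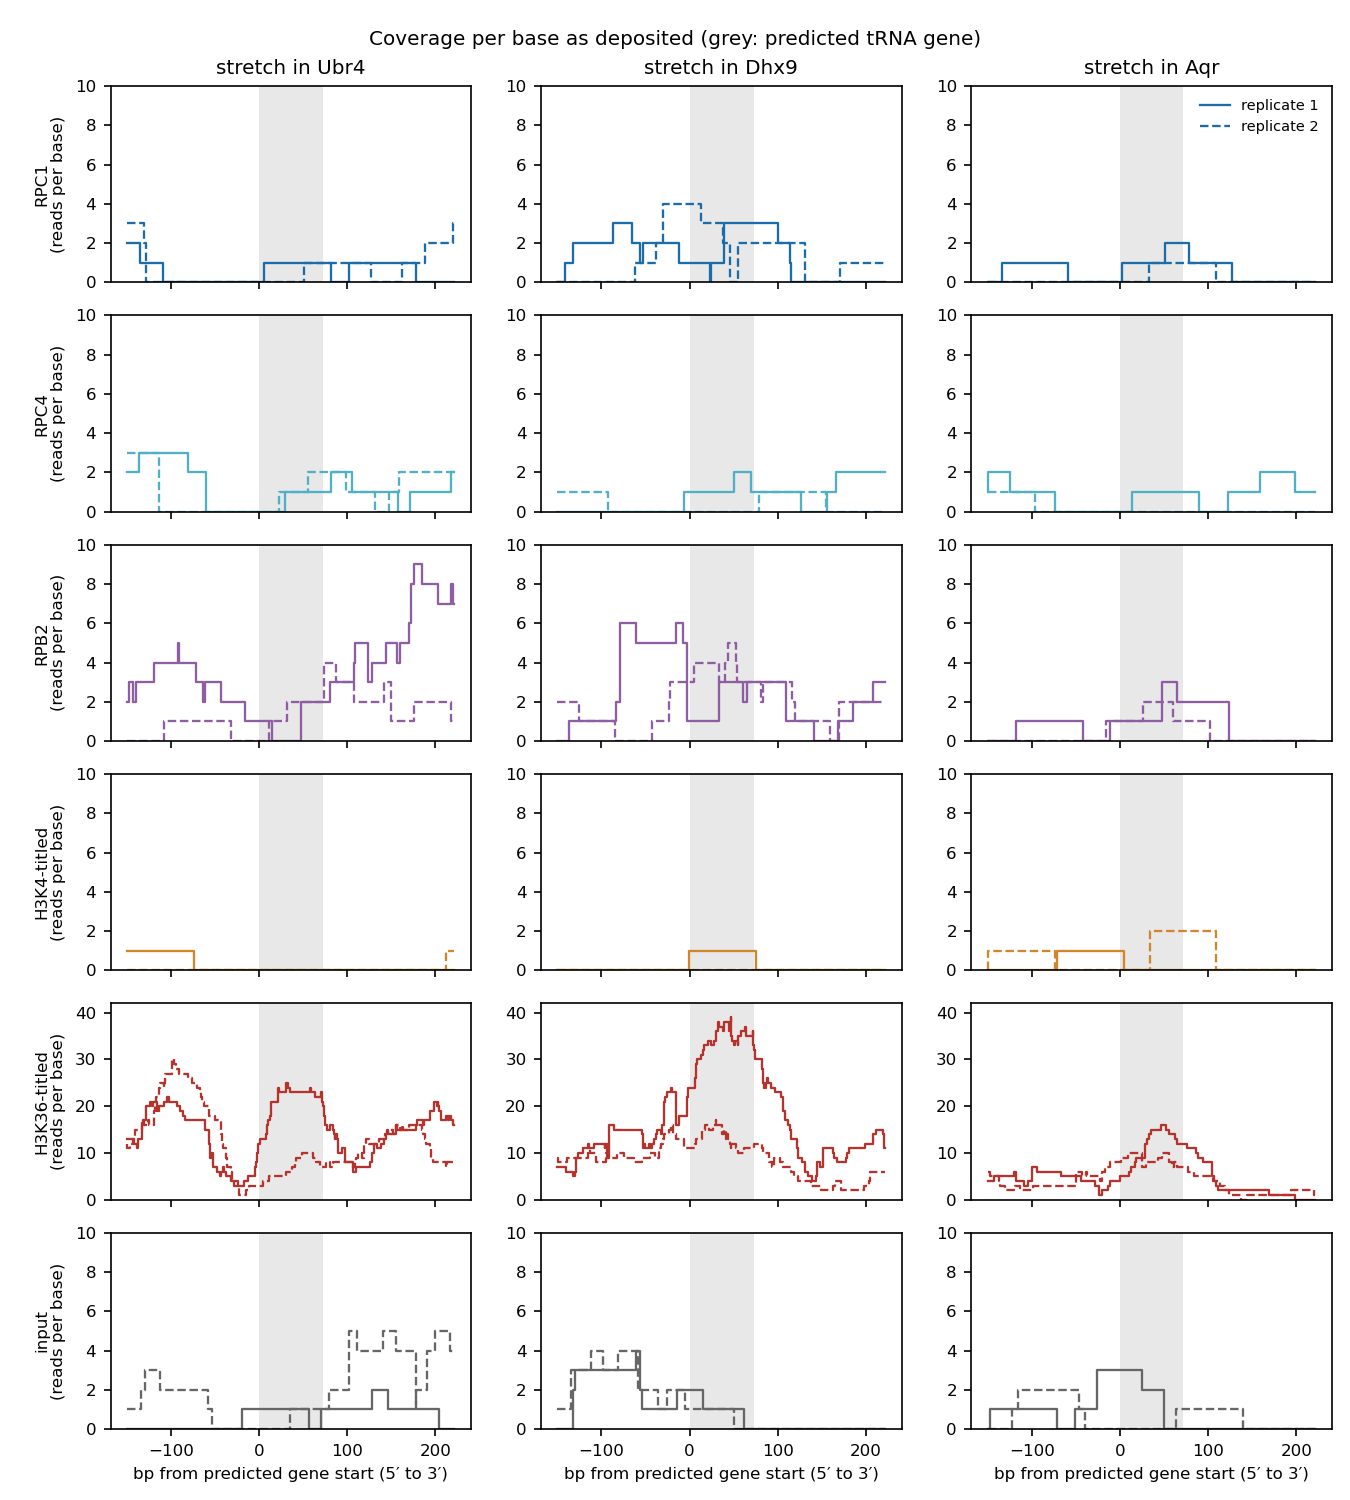
Coverage per base (reads, as deposited) against distance in bp from the start of the predicted gene (grey), for the 6 groups (rows) and 3 stretches (columns), with replicate 1 solid and replicate 2 dashed. The H3K36-titled row has its own axis to 42 reads, and the other rows end at 10. Its summits over the Dhx9 and Aqr genes appear in both libraries, while the libraries of the Ubr4 stretch part over the gene.

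RPB2 did not enter the choice of the stretches. In Ubr4 its coverage was 3.44 and 1.35 reads per base against 0.613 and 2.08 in input, so the groups overlapped. In Dhx9 it was 2.32 and 1.95 against 1.02 and 1.16, with no overlap. In Aqr it was 0.817 and 0.409 against 0.817 and 0.613, again overlapping. Along Ubr4 the RPB2 coverage was highest after the predicted gene, with 5.22 in replicate 1, and so was input replicate 2, with 3.64. RPB2 replicates had no common summit over the Dhx9 gene (r = -0.09 across bases). In Aqr they were more alike (r = 0.584), with 1.57 and 1.47 over the gene, 0.580 and 0.10 before it and 0.693 and 0.207 after it, on 4 and 2 read equivalents.

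For comparison across libraries, each library was divided by its mean coverage over 108 regions with little Pol III, taken as background, and log2 values were tested with limma over 397 regions. All 3 stretches passed its filter on low coverage, also when the H3K36-titled libraries were left out of that filter. Scaled RPB2 coverage was 3.80 ± 2.26 in Ubr4 and 3.42 ± 0.319 in Dhx9 (SD, n = 2). Both were above the mean of each of the 108 background regions (highest 3.41), Dhx9 by a narrow margin. In Ubr4 this rests on replicate 1, at 5.40, while replicate 2, at 2.20, ranked 9 against the background regions. Those regions were picked for low Pol III. Among all 397 tested regions Ubr4 and Dhx9 ranked 164 and 178 in RPB2, near the median of 3.26. Scaled RPB2 coverage in Aqr was 0.975 ± 0.436, at the background median of 0.988. Against input, the log2 difference in limma was 1.15 in Ubr4 (SE 0.76, adjusted p = 0.246), 1.20 in Dhx9 (SE 0.83, adjusted p = 0.273) and 0.11 in Aqr (SE 0.64, adjusted p = 0.930). Over all tested regions the median difference was 0.97. None of the 3 passed 0.05, and 0 of 3 had an unadjusted p under 0.05. In this comparison limma called 40.6% of all regions higher and 0.252% lower. The 95% intervals, -0.49 to 2.79 in Ubr4, -0.60 to 3.00 in Dhx9 and -1.28 to 1.50 in Aqr, include both no difference and several-fold ones. This comparison shares its input libraries with the choice of the stretches. In a fit restricted to the RPB2 and input libraries, Dhx9 was called (adjusted p = 0.0284 in limma). With file totals as the scale all 3 differences turned negative, -1.09, -1.05 and -2.20, and Aqr was called lower.

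H3K4-titled libraries had almost no reads in the 3 stretches. In Ubr4 their coverage was 0.204 and 0.0269 reads per base, in Dhx9 0.204 and 0, and in Aqr 0.204 and 0.613. Summed over both libraries this is 1.13, 1 and 4 read equivalents, against 13.2, 10.7 and 7 in input. As deposited, these values were below both input libraries in Ubr4 and Dhx9 and overlapped input in Aqr. The background regions were also thinly covered by these libraries, with means of 0.0619 and 0.113 against 0.774 and 0.926 in input. After scaling, the log2 difference from input in limma was -0.23 in Ubr4 (SE 0.76, adjusted p = 0.822), -0.52 in Dhx9 (SE 0.83, adjusted p = 0.620) and 1.93 in Aqr (SE 0.64, adjusted p = 0.0157). Aqr was thus 1 of 3 called higher, where 65.0% of all regions were called higher and 4.79% lower. Here too the input libraries had taken part in choosing the stretches. That call rests on 4 read equivalents and was lost without H3K4-titled replicate 2 (adjusted p = 0.0571) or input replicate 2 (adjusted p = 0.0901). The Aqr difference was -0.72 in coverage as deposited and -3.27 with file totals. Ubr4 and Dhx9 were called lower than input under both, at -2.347 and -2.385 as deposited and -5.06 and -5.13 with file totals. Without H3K4-titled replicate 1 Ubr4 and Dhx9 were called lower, at -1.53 and -2.19, and without replicate 2 they were 1.08 and 1.15. In such fits the lone library of a group is assumed to vary like the other groups. No direction against input was therefore stable for H3K4-titled signal in any of the 3.

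The difference between RPB2 and H3K4-titled libraries takes no value from the libraries that chose the stretches. Those libraries still entered the fit, since Pol III coverage picked the background regions and all 12 libraries share 1 spread. With only the RPB2 and H3K4-titled libraries fitted, 0 of 3 were called (Aqr, adjusted p = 0.0727 in limma). In Ubr4 and Dhx9 both RPB2 values exceeded both H3K4-titled values as deposited, while in Aqr the groups overlapped. In limma the log2 difference, RPB2 over H3K4-titled, was 1.38 in Ubr4 (SE 0.76, adjusted p = 0.130) and 1.71 in Dhx9 (SE 0.83, adjusted p = 0.0875), with 95% intervals of -0.26 to 3.01 and -0.09 to 3.52. In Aqr it was -1.82 (SE 0.64, adjusted p = 0.0238). One call in 3, in the lower direction, stands beside 57.9% of all regions called lower and 7.05% higher, with an all-region median of -1.89. Under the other scalings Ubr4 and Dhx9 were called higher in RPB2, at 3.97 and 4.08 with file totals, 3.45 and 3.62 with median of ratios and 3.17 and 3.26 as deposited. Aqr turned to 1.07, 0.39 and 0.49 under the same scalings and was not called. Without H3K4-titled replicate 1 all 3 were called, at 2.68, 3.38 and -2.15. Without replicate 2 none was, and Ubr4 and Dhx9 fell to 0.07 and 0.05. The Aqr call was also lost without RPB2 replicate 2 (adjusted p = 0.135).

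**Figure D4:**
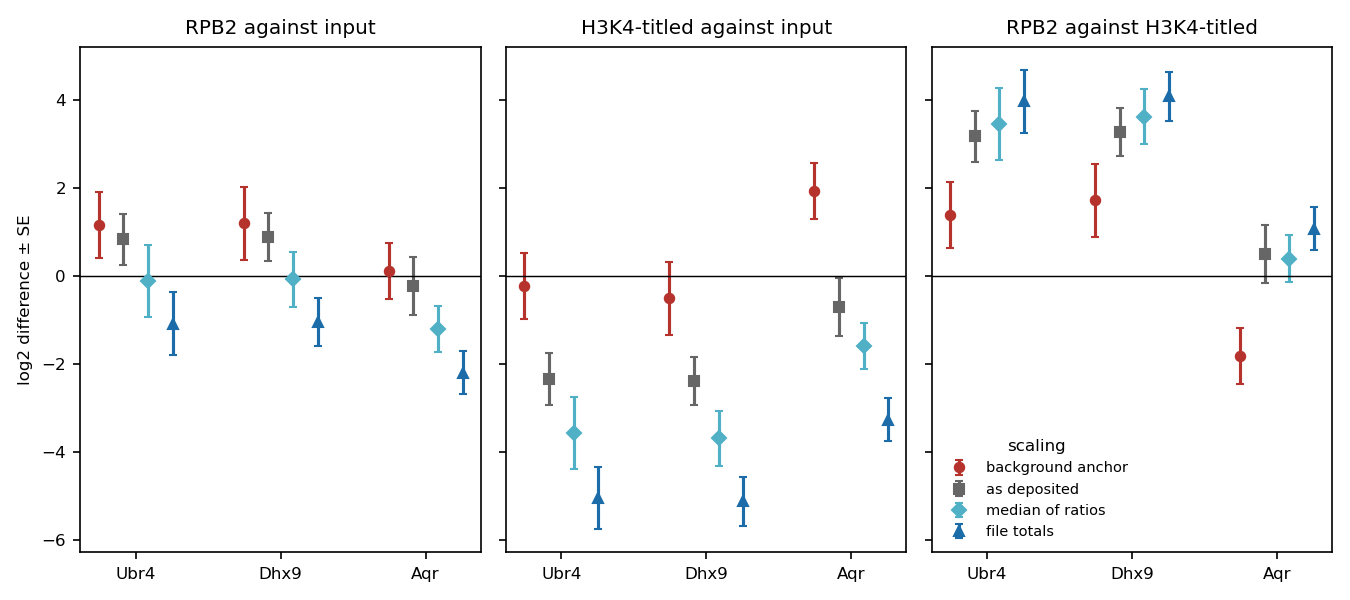
The log2 differences (points, with the standard error as bars) of RPB2 against input, H3K4-titled against input and RPB2 against H3K4-titled in the 3 stretches under 4 scalings of the libraries. Ubr4 and Dhx9 stay above 0 in the right panel, from 1.38 to 4.08, while the points of Aqr fall on both sides of 0 in all 3 panels.

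The Pol III subunits were compared with each other as well. The level of both subunits took part in the choice of the stretches, though their difference did not. In limma RPC1 minus RPC4 was -0.39 in Ubr4 (SE 0.76), 1.38 in Dhx9 (SE 0.83) and 0.13 in Aqr (SE 0.64), each with adjusted p = 0.966. With 0% of 397 regions called in either direction and 3 regions at an unadjusted p under 0.05, none of them here, this fit called no difference anywhere. In Dhx9 the interval ran from -0.43 to 3.18, so the higher RPC1 values there were not separated from the spread between libraries.

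On the same scaled scale, and as a description only, H3K36-titled coverage exceeded input by 4.91 in Ubr4, 4.85 in Dhx9 and 3.95 in Aqr on the log2 scale, or 30.1, 28.8 and 15.5 times. The Ubr4 difference was 4.32 without input replicate 1 and 5.50 without input replicate 2. The median over all tested regions was -0.42. Pol III differed from input by -0.21, -0.03 and -0.40, with an all-region median of 3.74. In H3K36-titled coverage Ubr4, Dhx9 and Aqr held ranks 3, 4 and 7 of 442 regions.

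Only 4 other regions exceeded the Aqr stretch in H3K36-titled coverage. As deposited, their Pol III coverage was 1.27 times input in Pisd, 1.55 in Rps6kc1, 1.09 in Cdkn2aipnl and 5.90 in Dhdh. In Ubr4, Dhx9 and Aqr it was 0.641, 0.892 and 0.634 times input. High H3K36-titled coverage with Pol III near input was thus not particular to the 3. The stretch in Pisd, which overlaps an exon with UTR sequence, had 41.6 and 32.3 reads per base, with Pol III at 7.54 and input at 5.92. The stretch in Rps6kc1 had 12.3 and 10.7 and lies outside any exon, but Pol III was 6.50 and input 4.19 there. Dhdh had 7.28 and 6.90 with Pol III at 6.55. In the library with the most of them, fractional values stood at 344 bases in Rps6kc1, 75 in Pisd and 15 in Dhdh, and at 0 in Cdkn2aipnl. The part of shared reads in their coverage was not tested. The region most like the set was in Cdkn2aipnl on chromosome 11 (51789891 to 51790262), a predicted tRNA-Ala (AGC) gene with 18.2 and 9.90, Pol III at 1.68 and input at 1.54. That stretch overlaps an exon of its host. Among regions within introns outside Gm20388, the locus with the 5S rRNA genes, the median H3K36-titled coverage of the 42 others was 0.431 and that of Pol III 4.42. Of 34 of these that were tested, limma called RPB2 higher than input in 13 and H3K4-titled signal higher in 18 and lower in 2.

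**Figure D5:**
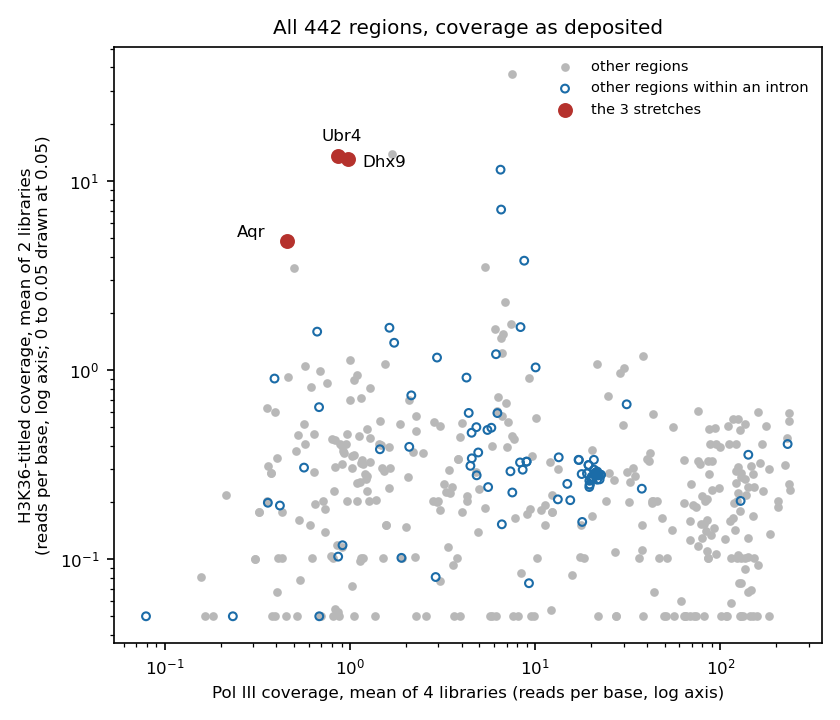
Pol III coverage (mean of 4 libraries) against H3K36-titled coverage (mean of 2), both in reads per base on log axes, for 442 regions. The 3 stretches are red, other regions within introns are open circles, and values up to 0.05 are drawn at 0.05. The 3 lie at Pol III of 0.454 to 0.971 and H3K36-titled coverage of 4.81 to 13.6, and the grey point beside them is the Cdkn2aipnl region.

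Over all 12 scaled libraries, by Euclidean distance between log2 values, Ubr4 and Dhx9 were nearest to each other (2.33). The nearest other region to both was the one in Cdkn2aipnl, at 3.21 and 3.71, followed by a tRNA-Trp (CCA) region near Rps12 on chromosome 10 (5.58 and 5.80) and the tRNA-Ala (AGC) stretch in Mmgt1 on the X chromosome (5.73 and 5.89). Aqr lay apart from the pair, 5.06 from Ubr4. Its nearest regions were a tRNA-Cys (GCA) gene near Krba1 on chromosome 6 (4.27), the Mmgt1 stretch (4.35) and a tRNA-Thr (TGT) gene near Gpx5 on chromosome 13 (4.37). Of these, the Mmgt1 stretch, which overlaps an exon with UTR sequence, came closest to Aqr in the coverage that chose the set, with H3K36-titled 3.84 and 3.08, Pol III 0.497 and input 1.24.

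Depth sets the limits of these values. The files held 1754 and 1273 read equivalents for H3K36-titled and 3563 and 3365 for input, against 82276 to 160705 for the Pol III libraries. The p-values measure only the spread between libraries.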

How the data were processed

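The authors deposited, for each library, coverage as a signal per base over selected stretches. The build is mm9, per the submitters' processing notes. How reads were aligned, filtered and assigned among repeats is not given in the sources used here. From the values, 1 read counts as 1.0 over 76 bp, and no depth scaling is visible in the deposited coverage. Sequences and annotation were read from NCBIM37 (mm9) with GENCODE vM1. tRNA genes were predicted by a cloverleaf search needing 17 or more of 21 stem pairs and ends 150 bp inside the stretch, which 377 of 381 single-gene stretches met.

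Neighbouring stretches less than 1000 bp apart formed 1 of 442 regions. A library's coverage was divided by its trimmed mean (trim 0.1) over a background anchor, namely the 25% lowest in Pol III, without the 3 stretches (108 regions). File totals consist mostly of strong Pol III genes and place empty stretches below input, so they served as an alternative. limma 3.58.1 in R 4.3.3 was fitted to log2(scaled coverage + 0.362) of all 12 libraries (6 residual degrees of freedom, mean-variance trend, two-sided, Benjamini-Hochberg adjustment over 397 regions, threshold 0.05). This pseudocount, the 5th percentile of values above 0, shrinks differences at low coverage. The lowest 0.1 of regions by mean coverage were not tested. The procedure was tested on simulated data, but no outcome of that is given here and no result rests on it. The stretches, lists and alternatives were chosen with earlier results of these data known. Regions were named where they were nearest to a stretch over the 12 libraries, or highest or lowest in Pol III among genes with the same anticodon. Pisd, Rps6kc1 and Dhdh were named after their values were seen. A closest relative of the Dhx9 gene is not reported here.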

Additional observations from a re-analysis of the deposited data

How the results depend on the processing

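Another scaling turned the sign of 6 of 12 tested differences, all 3 for RPB2 against input and the Aqr difference in the other 3 comparisons, and of 0 of 6 H3K36-titled and Pol III levels. The number of the 3 stretches called for RPB2 against input was 0, and 1 with file totals or with only the groups compared. The differences with file totals were -1.09 in Ubr4, -1.05 in Dhx9 and -2.20 in Aqr, with median of ratios -0.12, -0.080 and -1.22. In Aqr it was also -0.22 as deposited, -0.16 with the anchor on 50% of regions and -0.36 over the outer 150 bp alone. For H3K4-titled against input the count was 1, Aqr higher. It was 3 with file totals or median of ratios and 2, Ubr4 and Dhx9, as deposited, and all of these calls were lower than input. Ubr4 and Dhx9 were at -5.06 and -5.13 with file totals, -3.57 and -3.70 with median of ratios and -2.347 and -2.385 as deposited. Over the outer 150 bp alone it was 2, Dhx9 lower at -2.14 and Aqr higher at 2.07. It was 0 with the 50% anchor or without the outer 150 bp. Aqr turned to -3.27, -1.61 and -0.72 with file totals, median of ratios and as deposited, and Dhx9 to 1.67 without the outer 150 bp. For RPB2 against H3K4-titled the count was 1, Aqr lower. It was 2, Ubr4 and Dhx9 higher, with file totals, median of ratios, as deposited or the 50% anchor. Over the outer 150 bp alone it was 2, Dhx9 higher at 3.18 and Aqr lower at -2.43. Without the outer 150 bp it was 1, Ubr4 higher at 2.345, and Aqr, at -1.20, was not called. With only the groups compared it was 0. Aqr turned to 1.07, 0.39 and 0.49 with file totals, median of ratios and as deposited, and Dhx9 to -0.10 without the outer 150 bp. RPC1 minus RPC4 in Aqr was -0.066 as deposited and -0.23 over the outer 150 bp.

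The median Pol III difference from input over the 3 stretches was -0.21, and -4.67 with file totals, -3.46 with median of ratios, -0.42 as deposited, -1.23 with the 50% anchor and -0.014 without the outer 150 bp. Dhx9 alone was 0.0031 with the pseudocount doubled and 0.25 without the outer 150 bp. The median H3K36-titled difference was 4.85, and 4.69, 5.57, 3.33 and 4.94 under the same 4 scalings, 4.57 and 5.01 with the pseudocount doubled or halved, 5.26 without the outer 150 bp and 4.61 with them alone. The cause of these shifts was not tested.

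Leaving out each library in turn gave 0 to 3 calls for H3K4-titled against input and for RPB2 against H3K4-titled. RPB2 against input stayed at 0 calls, with Aqr between -0.23 and 0.45 and Ubr4 between 0.56 and 1.74. H3K4-titled against input ran from -1.53 to 1.08 in Ubr4 and from -2.19 to 1.15 in Dhx9. RPC1 minus RPC4 in Aqr ran from -0.60 to 0.87. The median Pol III difference ran from -0.28 to -0.030 (Dhx9 -0.23 to 0.16, Ubr4 -0.80 to 0.38) and the H3K36-titled one from 4.32 to 4.95 (Ubr4 4.32 to 5.50). Where a group keeps 1 library, its spread is taken from the other groups.

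With the replicate number as a block the calls were 0, 1, 1 and 0 for RPB2 against input, H3K4-titled against input, RPB2 against H3K4-titled and RPC1 against RPC4, as without it, and the medians were -0.21 and 4.85. Same-numbered libraries did not deviate together. Over 15 pairs of groups the correlations of their deviations ran from -0.123 to 0.0706, with 0 above 0.1, so the numbers were taken as names.

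Depth limits these values. With 1 to 4 H3K4-titled read equivalents per stretch, a few reads decide a direction.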
